A study of Drosophila melanogaster with 3 samples.

Results

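The regions described here are the peaks of CG16779-eGFP signal that lie between genes and away from any promoter in whole Drosophila melanogaster prepupae. They are peaks of the final list that the authors kept after an irreproducible discovery rate (IDR) step, and their summit falls inside no annotated gene and lies more than 500 bp from every annotated transcription start site, transposable elements not being counted as genes. Of the 4822 peaks in that list, 641 were such members, 13.3% of those on the chromosome arms, beside 2049 promoter peaks (42.6%) and 1973 intronic peaks away from promoters (41.1%). All samples came from 1 group of 3 biological replicates of a single line in which CG16779 carries an eGFP exon in an intron, so that the tagged protein comes from the gene's own locus. The animals were of both sexes pooled, the labels give their age as unknown, and the chromatin, sonicated to 200 to 800 bp, was precipitated with an antibody against GFP. No peak list of a control strain or input was used, so regions shared by unrelated GFP precipitations could not be marked. With whole animals, a region bound in few cells cannot be told apart from one bound weakly in many. Each replicate is represented by a list of 30000 scored regions, strong and weak, whose read depth is unknown.

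Sequence between genes in the fly holds enhancers and silencers, short stretches that transcription factors bind and that act on promoters lying up to many kilobases away. Active enhancers are usually depleted of nucleosomes, and RNA polymerase II often starts short unstable transcripts at their edges, running outward in both directions. Core promoters of Drosophila carry a short initiator element at the start site and often a GA repeat that GAGA factor binds.

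The strongest members on each of 2L, 3L, 3R and X give a first view of these sites, and the strongest one with GAGAGA within 50 bp of its summit is added. Each sequence is the summit base with 50 bases on either side, from the RefSeq copy of the dm6 reference, with GAGAG and CACTG capitalised on either strand (as CTCTC and CAGTG on the other). They are named by the genes on both sides of the gap.
COX7AL2 to CG31668, chr2L:2202381-2202481, plus strand: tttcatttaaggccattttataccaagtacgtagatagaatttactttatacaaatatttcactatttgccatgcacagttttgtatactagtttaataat
COX7AL2 to CG31668, chr2L:2199296-2199396, plus strand: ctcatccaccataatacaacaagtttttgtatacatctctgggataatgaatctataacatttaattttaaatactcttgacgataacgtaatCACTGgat
lncRNA:CR45424 to CG43389, chr3L:3246475-3246575, plus strand: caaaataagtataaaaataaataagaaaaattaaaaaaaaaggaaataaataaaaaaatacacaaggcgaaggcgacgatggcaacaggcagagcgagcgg
lncRNA:CR44718/lncRNA:CR44719 to lncRNA:CR44714, chr3L:11246197-11246297, plus strand: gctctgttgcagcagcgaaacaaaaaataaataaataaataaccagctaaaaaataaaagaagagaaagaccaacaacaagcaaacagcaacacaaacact
asRNA:CR44087 to glec, chr3R:21849112-21849212, plus strand: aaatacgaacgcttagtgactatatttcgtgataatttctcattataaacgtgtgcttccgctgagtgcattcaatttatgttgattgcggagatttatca
CG43131 to RabGGTa, chr3R:5113229-5113329, plus strand: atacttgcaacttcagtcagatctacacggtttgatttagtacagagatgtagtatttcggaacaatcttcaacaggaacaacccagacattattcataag
CG12689 to ct, chrX:7604638-7604738, plus strand: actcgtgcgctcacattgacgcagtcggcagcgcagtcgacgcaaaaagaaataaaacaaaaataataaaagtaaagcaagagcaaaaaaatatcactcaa
CG3149 to lncRNA:CR42794, chrX:5696496-5696596, plus strand: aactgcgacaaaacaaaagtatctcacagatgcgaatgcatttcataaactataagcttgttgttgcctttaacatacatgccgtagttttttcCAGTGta
CG7560 to CG6149, chr3L:11431412-11431512, plus strand: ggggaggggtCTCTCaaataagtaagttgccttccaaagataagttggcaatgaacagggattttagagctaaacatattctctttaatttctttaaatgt
GC content of these 9 stretches ran from 25.7% to 38.6%, and 3 of the 9 hold a capitalised word in this short window. The first stretch shown, from the COX7AL2 gap, is from the second strongest member of all and holds no capitalised word.

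The strongest member of all lay on 2R from 13035047 to 13035518, in the 36.8 kb gap between Su(z)2 and CG13323, 11914 bp from the nearest start site. Its score, the authors' own and used here only to rank regions within a list, was 2724, ninth in the IDR set, and it ranked 15, 15 and 5 in replicates 1, 2 and 3. Another strong member, with a score of 995 and ranks of 205, 344 and 165, lay between CG13321 and Psc, on the far side of the same gene pair. Su(z)2 and Psc are neighbouring paralogs of the Polycomb group, which keeps developmental genes silent. The second-ranked member lay on 2L from 2202187 to 2202618, between COX7AL2 and CG31668, and ranked 23, 20 and 20 in the replicates with a score of 2223. That gap is only 5.8 kb long and held 5 members.

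On 3L, the member beside CG43389 had a score of 2115 and ranked 5, 40 and 94, and the one 706 bp from the start of lncRNA:CR44713 had a score of 1813 and ranked 14, 31 and 149. Replicate 1 placed both higher than replicate 3 did. The member between CG43245 and lncRNA:CR44544 ranked 88, 152 and 58 with a score of 1369. Upstream of ct, which encodes the homeodomain protein Cut, a member with a score of 1121 ranked 56, 229 and 331. Upstream of fz, the gene of the Wnt receptor and planar polarity protein Frizzled, a member with a score of 1104 ranked 162, 206 and 148 and had its nearest other IDR summit 31473 bp away.

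The 20 strongest members had scores from 835 to 2724, and 19 of them were among the strongest regions of all 3 replicates. Here each replicate gives a number of regions equal to the IDR peaks on the arms. The score was made from the same 3 replicates, so high ranks in them are no independent check. Ranks of the 20 ran from 5 to 377 in replicate 1, from 15 to 639 in replicate 2 and from 5 to 472 in replicate 3. The exception lay between asRNA:CR44087 and glec, ranked 377 and 212 in replicates 1 and 3 and was not listed in replicate 2. Others of the 20 lay between Ppa, an F-box protein gene, and lncRNA:CR44761, and between lncRNA:CR45392 and lncRNA:CR43253. Further ones lay between Gbs-70E, which encodes a glycogen-binding phosphatase subunit, and CG34039 with asRNA:CR44843, and between CG3149 and lncRNA:CR42794. The zinc finger gene klu and the fatty acid desaturase gene Fad2 bordered another. The remaining gaps were those of CG43131 and RabGGTa, CG18404 and lncRNA:CR46113, CG17746 and CG12078, CG43336 and pxb, and lncRNA:CR45039 and E(spl)malpha-BFM, a Bearded family gene. A second strong member of the COX7AL2 gap, with a score of 887, completed the 20.

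Members fell into 412 of the 6461 gaps between genes that hold sequence over 500 bp from a start site on 2L, 2R, 3L, 3R and X (6.38%). Of these gaps, 284 held 1 member, 79 held 2 and 49 held 3 or more, so that 357 members (55.7%) shared their gap with another. Another IDR summit lay within 1000 bp of 25% of members, 26.3% of intronic and 25.7% of promoter peaks. The gap with the most members, 13 over 75 kb of 3L, separates NijA, which encodes the adhesion protein Ninjurin A, from CG43245. Counting the same number of strongest regions in each replicate, it held 13, 9 and 15 summits in replicates 1, 2 and 3, and the member scores ran from 179 to 630. Replicate 2 had the fewest, and 7 of the 13 members were recovered in all replicates.

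The next gap, 33.6 kb on 3R, lies between Qsox2 and Eip93F, the gene of the ecdysone-induced factor E93 that directs adult differentiation at metamorphosis. It held 9 members, against 8, 5 and 9 strong regions in replicates 1, 2 and 3. The strongest of the 9, 7502 bp upstream of an Eip93F start site, had a score of 582 and ranked 284, 2277 and 736. Replicate 2 thus placed it far lower than the others did, and 3 of the 9 were recovered in all replicates. Farther along 3R, the 18.7 kb gap of CG18404 and lncRNA:CR46113 held 8 members, with 8, 6 and 9 strong regions and scores from 311 to 884. On 3L, 7 members lay in the 33 kb between tRNA:Ile-TAT-1-2 and CG13898, with 5, 8 and 9 strong regions, and 7 in the 16.9 kb between lncRNA:CR45036 and lncRNA:CR42755, with 7, 5 and 10. Intervals of 60 members overlapped another IDR interval, so neighbouring summits are not always separate sites.

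The arms differed in how densely members were spread. On 3L there were 222 members (34.6%), on 3R 142, on 2L 132, on 2R 88 and on X 57, with none on 4 or Y. Per megabase of intergenic sequence over 500 bp from a start site, 3L held 24.5 members, 2L 19.7, 3R 18.5, 2R 11.8 and X 10.7. Among the strong regions of each replicate, 3L held 24.1, 20.6 and 30.6 per megabase and X held 10.4, 8.85 and 9.98. Values for 3L and X did not overlap, and replicate 3 was highest on every arm but X.

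**Figure D1:**
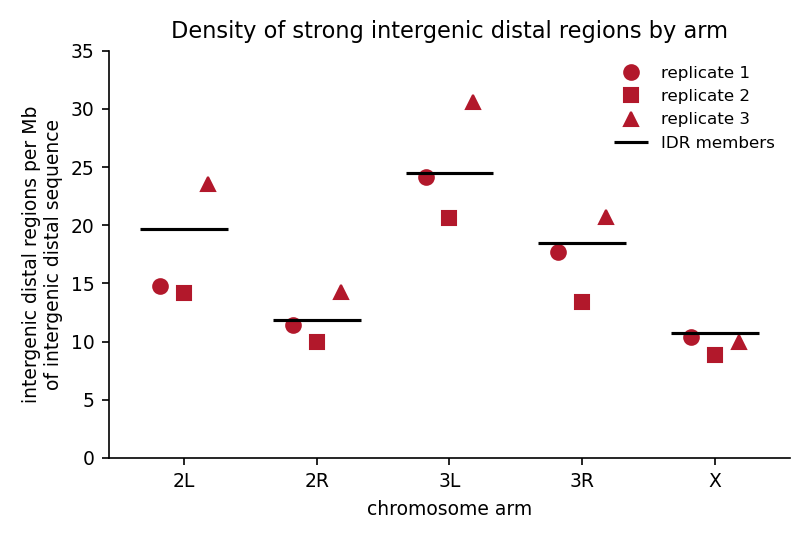
Strong intergenic distal regions per megabase of intergenic sequence over 500 bp from a start site, by chromosome arm. Points are the strongest regions of replicates 1 to 3 and lines the IDR members, which run from 10.7 on X to 24.5 on 3L.

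Within each replicate, the strong regions, chosen by that number, were set against weak ones, which overlap no strong region and lie over 500 bp from every strong summit. Replicates 1, 2 and 3 had 594, 506 and 754 strong intergenic distal regions and 5740, 4701 and 6378 weak ones. On 3L lay 36.9%, 37.0% and 36.9% of the strong regions and 27.2%, 26.5% and 24.2% of the weak ones, a mean difference of 10.9 ± 1.57 percentage points (SD, n = 3). Strong intronic regions were on 3L in 18.9%, 19.5% and 19.8% of cases, and the difference from them was 17.5 ± 0.457 points (SD, n = 3). Both differences were positive in 3 of 3 replicates, for which the exact sign-flip permutation test gives p = 0.25 (two-sided), the smallest value that 3 replicates allow. No comparison over replicates here can therefore pass a threshold of 0.05. The lists describe the same genome, so their spread measures the libraries and not the choice of sites.

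A few places on 3L were dense in members. The megabases 11 to 12, 0 to 1 and 10 to 11 of that arm held 32, 29 and 27 members, in 16, 18 and 7 gaps, against 18 in the fullest megabase of any other arm, 21 to 22 of 3R. Without those 3 megabases, picked for their members, 24.2% of members and 20.7% of background regions were on 3L. Background regions are those of the pooled list that overlap no IDR peak and lie over 500 bp from every IDR summit, 5937 of them intergenic and away from promoters. X took 8.89% of members and 8.83% of background regions, but 21.5% of intronic IDR peaks. In the replicates, strong intergenic regions were on X 12.7 ± 1.32 points less often than strong intronic ones (SD, n = 3, lower in 3 of 3, exact sign-flip permutation test, p = 0.25).

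Distances from summit to start site ran from 502 to 39129 bp, with a median of 2825 bp, against 3991 bp for the intergenic background and 2920 bp for intronic IDR peaks. In replicates 1, 2 and 3, strong regions had medians of 2726, 2392 and 3124 bp and weak ones 3859, 3512 and 4167 bp, so that the groups did not overlap. More than 10000 bp from any start lay 63 members (9.83%), against 17.2% of the background. The farthest, on 3R from 15596119 to 15596558 between AOX4 and CG43335, was weak, with a score of 174 and ranks of 14239, 11378 and 2534.

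**Figure D2:**
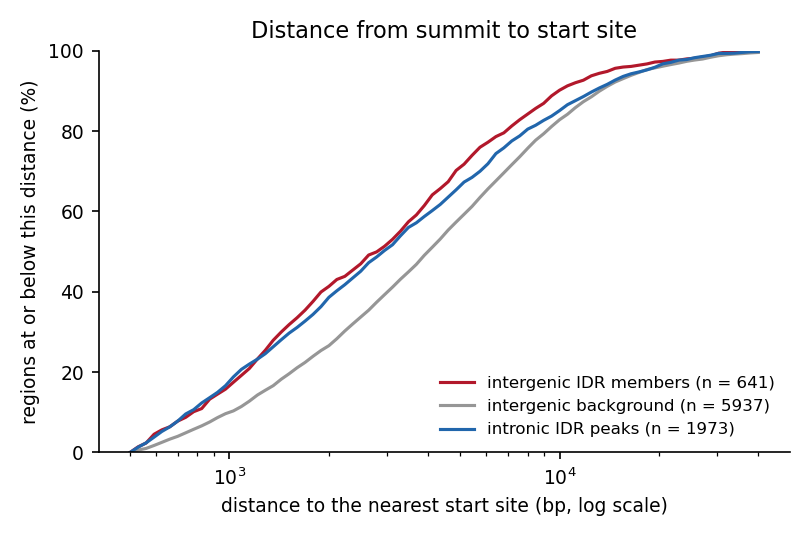
Cumulative share of regions by distance from summit to the nearest start site, on a log axis. Members (median 2825 bp) lie closer to start sites than the intergenic background (3991 bp) and follow intronic IDR peaks (2920 bp) at short distances.

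Gaps between divergent genes, whose 5′ ends face each other, held 183 members (28.5%) and 25.5% of background regions, while making up 20.3% of the intergenic distal sequence. Convergent gaps held 143 members (22.3%) and 24.9% of the background, with 26.8% of the sequence. Upstream of the nearest gene lay 435 members (67.9%), compared with 58.1% of background regions. The nearest start belonged to a protein-coding gene for 416 members, to a non-coding RNA gene for 211 and to a tRNA gene for 14. Non-coding RNA genes thus made up 32.9% of nearest genes for members and 33.5% for the background. An annotated transposable element held 2 members (0.312%) and 0.421% of background regions.

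Genes nearest to a member had a peak at their own promoter in a minority of cases, but more often than those nearest to a background region. An IDR promoter peak was present at the nearest gene of 169 members (26.4%) and of 660 background regions (11.1%). Members had 448 distinct nearest genes and background regions 2337, so a gene near several regions is counted several times. Counted within replicates 1, 2 and 3, the nearest gene had a strong promoter region for 27.8%, 29.4% and 24.3% of strong intergenic regions and for 12.2%, 13.7% and 7.82% of weak ones. The groups did not overlap, and the difference was 15.9 ± 0.462 points (SD, n = 3, higher in 3 of 3, exact sign-flip permutation test, p = 0.25). Weak and background regions had to lie over 500 bp from every strong or IDR summit, promoter summits included, and strong regions and members did not. Part of these differences, and of those in distance to a start site, may therefore be built in. How large that part is was not tested.

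By nearest start, 448 of 18277 genes (2.45%) had at least 1 member, and 2337 (12.8%) had a background region. Transcription factor genes of development had a member in 27 of 166 cases (16.3%) and a background region in 36.7%. The strongest were the members near ct and klu described above and one 3330 bp upstream of foxo, the insulin-responsive forkhead gene, with a score of 669 and ranks of 627, 417 and 528. Signalling genes had a member in 14 of 81 cases (17.3%) and a background region in 24.7%. Beside fz, these were led by a member 5145 bp upstream of Wnt10, a Wnt ligand gene, with ranks of 578, 1337 and 547, and by one 569 bp upstream of ds, which encodes the cadherin Dachsous, with ranks of 1094, 882 and 795.

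Ecdysone response genes held 10 members at 4 of 38 genes (10.5%), namely Eip93F, Hr38, ImpE2 and hid, and 8 of the 38 (21.1%) had a background region. The cell death gene hid had one 5031 bp upstream with a score of 637 and ranks of 434, 1428 and 439. Muscle genes had a member in 3 of 26 cases (11.5%), near Zasp52, a Z-disc protein gene, and the actin genes Act87E and Act57B, with scores of 484, 285 and 230, while 4 (15.4%) had a background region. Cuticle protein genes had one in 3 of 126 cases (2.38%), Cpr72Ea, Cpr72Eb and Cpr51A, though 29 of them had a background region. Chemosensory receptor genes had members at 5 of 186 (2.69%) and background regions at 23.7%. Of those, Gr93d, Gr93b and Gr93a had scores of 914, 612 and 372, and all 3 lie in one cluster of gustatory receptor genes on 3R. The Gr93d member is the one between asRNA:CR44087 and glec, which was not listed in replicate 2. Genes of the Hox complexes (12), heat shock proteins (22), stress and detoxification (24), fat body and larval serum proteins (18), ribosomal proteins (86) and immune effectors (32) had 0 members. Background regions were at 0 of the Hox genes, 2 of the heat shock, 5 of the stress, 1 of the fat body, 3 of the ribosomal and 3 of the immune genes. With the nearest protein-coding start instead, chosen after the data were seen, 37 transcription factor genes (22.3%) and 19 signalling genes (23.5%) had a member, against 2.91% of protein-coding genes. By that start 5 ecdysone, 4 muscle, 3 cuticle, 7 chemosensory and 1 Hox gene had a member, and the other lists again had 0. CG16779 itself had no member near it, the closest summit being 380296 bp from its start.

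Which replicate recovered the most members was not the one that recovered the most promoter peaks. In replicates 1, 2 and 3, 77.4%, 67.6% and 86.7% of members overlapped a strong region. For promoter peaks the shares were 83.0%, 83.2% and 67.7%, and for intronic peaks 76.4%, 73.9% and 78.7%. Replicate 3 was thus the highest for members and the lowest for promoter peaks, and replicate 2 the lowest for members. The mean difference from promoter peaks was -0.734 ± 17.9 points (SD, n = 3) and had no constant sign (exact sign-flip permutation test, two-sided, p = 1). The difference from intronic peaks was 0.893 ± 7.19 points (SD, n = 3, higher in 2 of 3, exact sign-flip permutation test, p = 0.75). Without replicate 3 it was -2.67 and without replicate 2 it was 4.51. The differences from promoter peaks were -5.59, -15.7 and 19.0 points in replicates 1, 2 and 3, and their mean became 1.69 without replicate 1, 6.73 without replicate 2 and -10.6 without replicate 3.

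**Figure D3:**
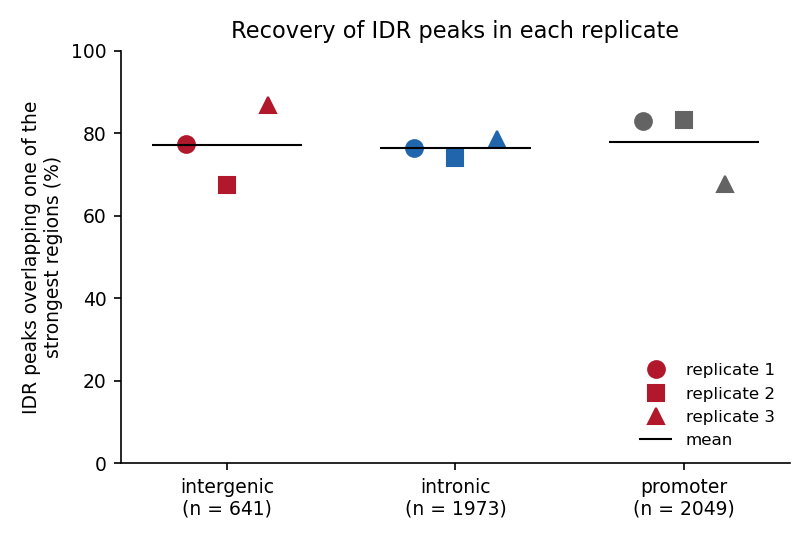
Percentage of IDR peaks of each class that overlap, by at least 1 bp, one of the strongest regions of each replicate, with the mean as a line. Members are highest in replicate 3 (86.7%) and promoter peaks lowest in it (67.7%).

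All 3 replicates recovered 333 members (52.0%), against 49.6% of all IDR peaks. Another 186 were missed by 1 replicate, which was replicate 2 for 106 of them. For 749 promoter peaks missed by 1 replicate, it was replicate 3 in 479 cases. Replicate 3 alone recovered 71 members, and 8 members were in no replicate's strongest set. Anywhere in the lists of 30000, 99.1%, 97.0% and 94.9% of members had an overlapping region, whose summit was a median of 18, 19 and 16.5 bp away.

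Intergenic regions away from promoters reached the IDR set less often than promoter regions did. Of 6741 such regions in the pooled list 641 (9.51%) were IDR peaks, against 2049 of 7247 promoter regions (28.3%) and 16.0% of all 29983. The IDR peaks were the regions with the highest scores of the pooled list on the arms, so these shares describe scores. Scores of members had a median of 272, with quartiles of 210 and 377. Within the IDR peaks, members' median score percentile was 45.9, 42.6 and 48.7 in replicates 1, 2 and 3, where promoter peaks had 55.0, 56.8 and 51.7 and intronic peaks 46.2, 45.9 and 49. Only IDR peaks with an overlapping region in a replicate's list were ranked in it. In replicate 3 these were 94.9% of members, 89.6% of intronic and 81.6% of promoter peaks. Among ranked peaks, members were below promoter peaks in 3 of 3 replicates, by 8.79 ± 5.64 points on average. They were below intronic peaks by 1.33 ± 1.76 points, less than the spread between replicates (SD, n = 3, exact sign-flip permutation test, p = 0.25 for both). How the unlisted peaks would change these values was not tested in the replicates. The intronic difference was -0.31 without replicate 2 and -0.598 with a promoter distance of 250 bp, where its sign was not constant. The promoter difference was -5.53 at 250 bp and -4.1 on the pooled score. Among the strongest 961 IDR peaks members made up 9.26%, and in each further block of 961 from 13.3% to 15.8%.

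Base composition dipped sharply at the summit. In members, GC content was 33.8% within 50 bp of the summit, 38.3% between 50 and 100 bp, 44.9% between 100 and 200 bp and 45.2% between 200 and 500 bp. Intergenic background regions had 41.8%, 42.8%, 44.0% and 43.4% in the same bands. Strong intergenic regions of replicates 1, 2 and 3 had 35.2%, 33.8% and 34.4% within 50 bp, and weak ones 41.9%, 41.0% and 42.9%. The step from the flanks, at 200 to 500 bp, down to the 50 bp on either side of the summit was 10.4 ± 0.887 points in strong and 1.23 ± 1.13 points in weak regions (SD, n = 3). Over 100 bp on either side, GC content of strong minus weak regions was -4.96, -5.52 and -6.75 points (SD 0.919, n = 3, lower in 3 of 3, exact sign-flip permutation test, p = 0.25). Intronic IDR peaks dipped to 34.7% and promoter peaks to 40.4% within 50 bp.

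**Figure D4:**
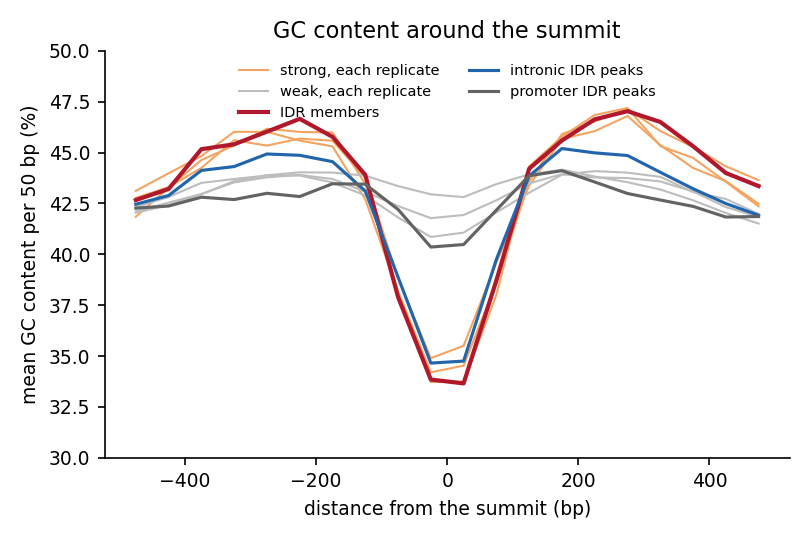
Mean GC content in steps of 50 bp against distance from the summit. Members and the strong intergenic regions of each replicate drop to about the level of intronic IDR peaks at the summit (33.8% and 34.7% within 50 bp), while weak intergenic regions and promoter peaks stay above.

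Short known motifs were then sought by exact match on both strands within 100 bp of the summit. Of 30 motifs, 6 were at least 25% more frequent in members than in the intergenic background and 9 were at least 20% less frequent. The direction was the same in the strong and weak regions of 3 of 3 replicates for 5 of the 6 and 7 of the 9. Letters rich in A and T were among the more frequent. AAAAAAA was in 28.1% of members, 20.1% of the background and 28.6% of all IDR peaks, and TATAAA in 32.0%, 22.6% and 29.5%. Some rich in G and C were among the less frequent, with CAGCTG, an E-box, in 4.68%, 9.35% and 8.30%, and CACCTG in 3.90%, 7.12% and 4.16%. ATGCAAAT, which is rich in A and T, was less frequent too, in 2.96%, 4.38% and 2.68%. GCCAT, the core of the Pho site of Polycomb response elements, was in 26.5%, 38.1% and 24.3%. The shares of members named here lay nearer to those of all IDR peaks than to the background, though only slightly so for CAGCTG. The part of the GC dip in these differences was not tested.

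GAGAGA, the GA repeat, was in 12.8% of members and 8.88% of the background, against 17.7% of all IDR peaks, 16.1% of intronic and 20.2% of promoter peaks. In replicates 1, 2 and 3 it was in 12.5%, 11.9% and 11.7% of strong and 8.82%, 9.38% and 7.79% of weak intergenic regions. The difference was 3.33 ± 0.751 points (SD, n = 3, higher in 3 of 3, exact sign-flip permutation test, p = 0.25), but it was -0.412 points within 50 bp and 7.24 points within 150 bp of the summit. The 5-letter form GAGAG was within 100 bp of the summit in 23.9% of members and 23.5% of the background. Its strong minus weak difference was 0.0306 ± 0.627 points (SD, n = 3), with no constant sign. By position, GAGAG was sparse at the summits of members, with 7.88 matches per 100 regions and 50 bp. It rose to 17.3 between 100 and 200 bp, against 9.38 and 8.88 in the background. Intronic IDR peaks rose as well, from 13.4 to 20.9. Promoter peaks instead had 25.2 matches within 50 bp of the summit.

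Words of 6 letters present in at least 20 of the 220 members on chromosome 2, 678 in all, were ranked by their ratio to the background. The 10 with the highest ratio were read again on chromosomes 3 and X, where 9 of 10 were above the background. How many of all 678 were above it there is not given here, and the lower GC content of members was not accounted for. Some of the 10 are shifts of one string, such as AGGTAA and AAGGTA, so they are not 10 separate words. ATATTA was in 35.9% of members on chromosome 2 and 35.2% of those on 3 and X, with background shares of 16.9% and 19.5%. CTACAC, with the highest ratio on chromosome 2 (2.98), had a ratio of 1.53 on the others, and AGGTAA, which followed with 2.88, had 0.975. ACTGTA, the eighth, was in 15.5% and 11.4% of members, 2.17 and 1.72 times the background.

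A word family more frequent at some distance from the summit was picked after the words of these regions had been seen. CACTG, or CAGTG on the other strand, was in 48.2% of members, 38.1% of the background and 43.5% of all IDR peaks. The longer form CACTGAG was in 9.67% of members, 4.53% of the background, 5.85% of all IDR peaks and 3.81% of promoter peaks. Strong intergenic regions of replicates 1, 2 and 3 held CACTGAG in 7.58%, 9.09% and 9.28% of cases, weak ones in 4.09%, 4.87% and 4.01%, and strong promoter regions in 3.36%, 3.69% and 3.96%. The strong intergenic regions thus lay above both of these groups without overlap, by 4.32 ± 0.899 and 4.98 ± 0.663 points (SD, n = 3, exact sign-flip permutation test, p = 0.25 for both). Strong intronic regions, at 6.69%, 6.59% and 6.41%, were nearer, the difference being 2.09 ± 1.06 points (SD, n = 3, higher in 3 of 3, exact sign-flip permutation test, p = 0.25). Within 50 bp of the summit the differences from weak and from promoter regions were only 0.398 and 0.869 points. CACTG itself was 1.07 ± 1.62 points more frequent in strong intergenic than in strong intronic regions, higher in 2 of 3 replicates. In members CACTG was rarest at the summit, with 9.28 matches per 100 regions and 50 bp, most frequent between 50 and 100 bp, with 23.2, and fell to 9.98 beyond 200 bp. Intronic IDR peaks had 10.8, 20.3 and 9.53 in these bands, and background regions 12, 12.8 and 9.66.

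The matches also differed by direction. Read as TCAGTG, the word holds letters of the Drosophila initiator, the element at which transcription starts. No RNA data were used, so whether transcription starts at these matches was not tested. A match was called outward when TCAGTG, read 5′ to 3′, ran away from the summit, and inward when it ran towards it. Between 50 and 100 bp from the summit members had 13.1 outward and 2.50 inward matches per 100 regions, and between 100 and 150 bp 9.05 and 3.28. Between 200 and 250 bp the outward value was down to 1.72. The background had 4.30 outward and 2.71 inward matches between 50 and 100 bp.

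**Figure D5:**
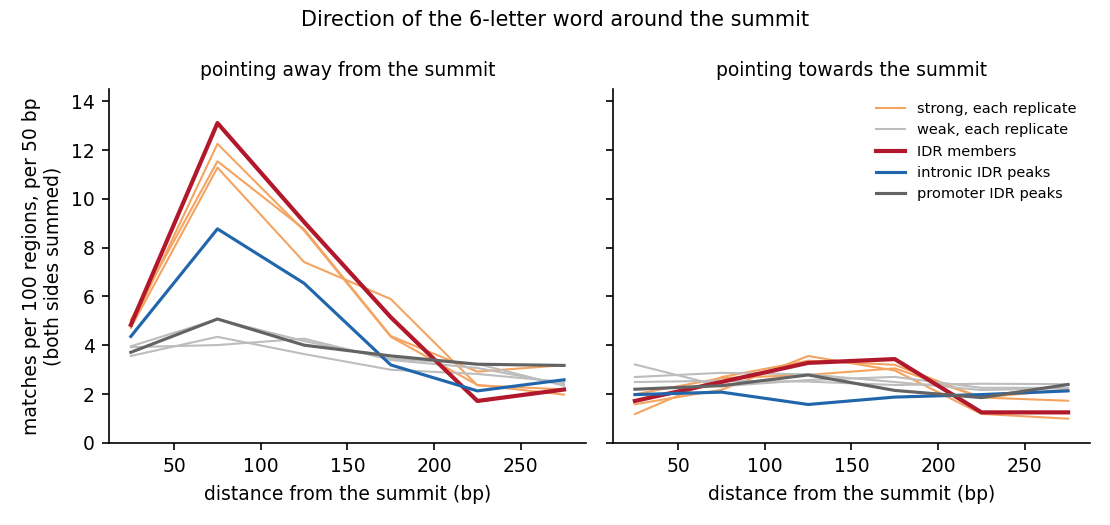
Matches to TCAGTG per 100 regions in steps of 50 bp from the summit, both sides summed, left for matches that run away from the summit and right for those that run towards it. Members reach 13.1 outward matches between 50 and 100 bp, above the strong intergenic regions of each replicate (11.3 to 12.3), intronic (8.77) and promoter peaks (5.08), and inward matches are at most 3.56 in any of these groups.

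Taken over 50 to 150 bp, strong intergenic regions of replicates 1, 2 and 3 had 18.7, 20.9 and 20.3 outward and 6.06, 5.73 and 5.44 inward matches per 100 regions. Weak ones had 8.28, 9.23 and 7.98 outward and 5.05, 4.89 and 5.68 inward. The excess of outward over inward matches was larger in strong than in weak regions by 10.9 ± 1.57 per 100 (SD, n = 3, 3 of 3 replicates, exact sign-flip permutation test, p = 0.25). The word and this comparison were chosen after the data were seen. Strong regions of replicates 1, 2 and 3 overlapped 77.4%, 67.6% and 86.7% of members, so their values are no independent check of the pattern. Strong intronic regions had 12.5, 13.3 and 14.4 outward matches and strong promoter regions 8.27, 8.63 and 9.67. The outward excess of intergenic regions was above the intronic one by 4.89 ± 0.963 (SD, n = 3, 3 of 3, exact sign-flip permutation test, p = 0.25), or 2.92 with the 10000 strongest regions, and neither overlapped the other in outward matches. Promoter peaks were not turned to the direction of their gene here, and for them the side of the summit carries no fixed meaning.

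Within 149 bp of the summit, 153 members (23.9%) had an outward TCAGTG on at least 1 side, against 15.5% of all IDR peaks and 11.1% of the background. Intronic IDR peaks had it in 17.3% and promoter peaks in 11.3% of cases. On both sides it was found in 17 members (2.65%), 1.67% of intronic and 0.732% of promoter peaks, 1.39% of all IDR peaks and 0.758% of the background. The 4 strongest of these 17 members that can be shown are printed to make the layout visible, as 299 bases of the plus strand around the summit. Capitals mark TCAGTG and its reverse complement CACTGA, so that CACTGA to the left and TCAGTG to the right both run outward.
CG31495 to CG14362, chr3R:13845214-13845512, plus strand: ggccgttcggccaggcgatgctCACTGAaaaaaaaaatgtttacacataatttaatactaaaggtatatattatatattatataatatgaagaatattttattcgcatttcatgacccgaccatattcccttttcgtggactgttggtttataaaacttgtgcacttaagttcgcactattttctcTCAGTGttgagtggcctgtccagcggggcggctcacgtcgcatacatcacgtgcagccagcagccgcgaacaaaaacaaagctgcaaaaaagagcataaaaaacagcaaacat
Cpr72Ea to Cpr72Eb, chr3L:16364196-16364494, plus strand: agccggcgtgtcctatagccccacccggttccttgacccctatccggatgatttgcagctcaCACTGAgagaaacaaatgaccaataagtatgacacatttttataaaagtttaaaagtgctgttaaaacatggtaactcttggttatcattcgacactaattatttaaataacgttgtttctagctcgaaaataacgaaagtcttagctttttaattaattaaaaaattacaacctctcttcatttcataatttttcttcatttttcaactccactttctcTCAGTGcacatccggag
lncRNA:CR44723 to lncRNA:CR45250, chr3L:11325720-11326018, plus strand: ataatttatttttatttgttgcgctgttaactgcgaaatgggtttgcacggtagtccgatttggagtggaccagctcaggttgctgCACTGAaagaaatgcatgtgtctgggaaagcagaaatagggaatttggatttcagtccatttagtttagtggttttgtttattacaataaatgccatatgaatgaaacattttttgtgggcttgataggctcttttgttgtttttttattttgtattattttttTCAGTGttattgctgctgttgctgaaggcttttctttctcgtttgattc
hh to unk, chr3R:23149092-23149390, plus strand: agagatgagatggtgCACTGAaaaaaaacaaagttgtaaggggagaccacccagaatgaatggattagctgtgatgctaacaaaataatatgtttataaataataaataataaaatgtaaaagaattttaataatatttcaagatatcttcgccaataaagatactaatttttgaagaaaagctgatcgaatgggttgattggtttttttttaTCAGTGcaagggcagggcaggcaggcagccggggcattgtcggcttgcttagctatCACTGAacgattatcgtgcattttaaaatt
Between the outward words GC content was 26.6%, 26.6%, 29.1% and 25.5% in the order shown, and in the bases outside them 55.0%, 60.3%, 41.9% and 50.5%. The words lay from 40 to 136 bp from the summit, and the fourth region holds a further CACTGA that runs inward. The member between Cpr72Ea and Cpr72Eb, a pair of cuticle protein genes, had a score of 510 and ranked 823, 2494 and 606. The one between hh, the Hedgehog ligand gene, and unk had a score of 461 and ranked 925, 2267 and 791.

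Among the members themselves, few of these properties followed the score in order. In 4 blocks of 160 or 161 members, from the strongest to the weakest, GC content within 100 bp was 35%, 35.5%, 37.4% and 36.2%, and CACTGAG was in 11.8%, 9.38%, 6.88% and 10.6%. Outward TCAGTG matches between 50 and 150 bp were 29.8 per 100 in the strongest block and 20.6, 18.1 and 20 in the others. Recovery by all 3 replicates fell from 96.3% through 70.6% and 35% to 5.63%. The score was made from the same 3 replicates, so this fall is built in and is no independent check. In 4 blocks by distance to a start site, from 502 to 1252 bp up to 5583 to 39129 bp, outward matches were 19.9, 21.9, 23.8 and 23.1, with the lowest value nearest to the start sites. The nearest members to the limit of 500 bp lay 502, 507 and 517 bp from a start site and had scores of 228, 322 and 246. Just outside it, summits 500, 500 and 499 bp from a start site had scores of 533, 231 and 264.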

How the data were processed

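The deposited peak lists on dm6 were used: 1 list of 30000 regions for each of 3 replicates, 1 pooled list of 30000, and the IDR set of 4822 peaks, read on the arms. The pooled list and the IDR set were made from all 3 replicates. Column values were the authors' score per region, deposited on a scale of its own in each list, and were used only to rank and describe regions within a list. The peak caller, aligner and read depth are not stated in the labels or headers used here, and lists on dm3 were not analysed here. Strong regions are the highest-scoring of a list, as many as there are IDR peaks on the arms. Genes came from Ensembl release 115 and sequence from the RefSeq copy of the same assembly, in which 0 regions ran past an arm's end. Overlap needed 1 bp. Sequence was read within 100 bp of the summit unless stated. Differences within each replicate were tested by exact sign flips over the 3 replicates. Measures were tested on simulated data. The gene lists (12, with 15 symbols unmatched), motifs (30) and members were chosen with earlier results of these data known. Named genes are those beside the 20 strongest members, the fullest gaps and the farthest member, the 3 strongest per list, and CG16779. The replicate numbers come from the labels, which put all samples in 1 group. Python 3.11.15, numpy 2.4.6 and scipy 1.17.1 were used.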

Additional observations from a re-analysis of the deposited data

How the results depend on the processing

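Of 105 alternatives to 18 results, 96 kept the direction of the result and 9 did not. Many of the 105 could not have reversed. The member count is always positive, and a mean whose 3 replicates share a sign keeps it without 1 of them. The number that kept the direction is therefore no measure of robustness. Recovery of members minus that of promoter peaks, -0.734 points, became 4.01 with the 10000 strongest regions, 3.88 with whole lists, 0.125 under a stricter overlap of the peak and 1.27 when summits had to lie within 100 bp. With the 2000 strongest it was -7.21, and leaving out 1 replicate gave -10.6 to 6.73. Recovery minus that of intronic peaks, 0.893 points, was -2.15 with the 2000 strongest regions, 2.23 with the 10000 strongest and -2.67 to 4.51 without 1 replicate. The GAGAGA difference of 3.33 points was -0.412 within 50 bp of the summit and 7.24 within 150 bp. The CACTGAG differences from weak and promoter regions, 4.32 and 4.98 points, were 0.398 and 0.869 within 50 bp. The GC difference of -5.74 points was -3.77 within 150 bp. Among the 10000 strongest pooled regions, the share of intergenic regions in the IDR set minus that of promoter regions was -12.7 points in place of -18.8. The cause of these changes was not tested. The member count ran from 535 with a distance of 1000 bp to 829 with protein-coding genes only. Results on the word CACTGAG, on the direction of TCAGTG, on the arms and on the GC step were added after seeing the data. Every difference was taken within a replicate, and the labels give no second group to pair with. Sign flips over 3 replicates cannot give a p below 0.25, and read depth is unknown.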
